A study of Mus musculus with 6 samples.

Results

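Proton-potassium and sodium-potassium pumps were described in kidney RNA of Tsc1-KO and WT mice through 7 genes that encode their subunits: Atp12a, Atp4a, Atp1b1, Atp1b3, Fxyd2, Fxyd4 and Fxyd5. The 7 genes were taken by symbol from the 15302 genes of the expression table. They were selected on symbol, with their FPKM in Tsc1-KO and WT kidneys already known, so their own values in that comparison are given as a description. Where calls among them are counted, the count is set beside the share of all genes and supports nothing. They were set beside a family list of 14 genes, which holds H+/K+-ATPase alpha subunits and the beta and FXYD subunits. Of these, 10 had values, and besides the 7 they are Atp1b2, Fxyd1 and Fxyd6. Atp1b4, Atp4b, Fxyd3 and Fxyd7 were not analysed here.

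The Tsc1-KO group had 3 libraries, replicates 4 to 6, with the genotype given as Tsc1f/f/Aqp2 Cre, in which Cre under the Aqp2 promoter deletes floxed Tsc1 in principal cells of the collecting duct. The WT group had 3 libraries, replicates 1 to 3, with the genotype given as C57BL/ 6. Kidneys were taken at 45 days in both groups and poly A RNA was sequenced. Whether WT and Tsc1-KO mice shared litters is not given in the labels, nor whether each library comes from a separate mouse, so an n of 3 counts libraries. The strain and the Cre line cannot be told apart from the loss of Tsc1.

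P-type pumps of this family move ions by forming a phosphorylated aspartate on the alpha subunit. The Na+/K+-ATPase of the basolateral membrane of tubule cells exchanges sodium for potassium and drives sodium reabsorption, and the H+/K+-ATPases secrete protons and take up potassium in the collecting duct. A beta subunit carries the alpha subunit to the membrane, and small FXYD proteins tune the affinity of the Na+/K+-ATPase for its ions.

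The FXYD proteins are named for a motif that their transcripts share, and it is shown for the 3 FXYD members. Capitals mark the codons of that motif, and the sequences are from GENCODE vM21 on GRCm38.
Fxyd2: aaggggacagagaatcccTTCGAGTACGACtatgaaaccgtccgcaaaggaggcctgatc
Fxyd4: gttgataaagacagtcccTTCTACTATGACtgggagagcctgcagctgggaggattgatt
Fxyd5: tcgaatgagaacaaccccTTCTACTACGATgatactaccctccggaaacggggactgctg
These stretches span introns. On GRCm38 the Fxyd2 stretch runs over chr9:45408117-45408331 on the plus strand, that of Fxyd4 over chr6:117934469-117935158 on the minus strand and that of Fxyd5 over chr7:31035252-31035413 on the minus strand. Of the 60 bases, 35 were identical between Fxyd2 and Fxyd4, 35 between Fxyd2 and Fxyd5, and 32 between Fxyd4 and Fxyd5. The coding sequence of Fxyd5 has 534 bases, against 192 in Fxyd2 and 264 in Fxyd4. Between the coding sequences of Atp12a and Atp4a, 64.8% of the aligned bases were identical, and the longest identical run was 17 bases.

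The libraries held 19568856 to 24647430 reads in listed genes. Tsc1, the deleted gene, was at 7.69, 7.61 and 8.23 FPKM in Tsc1-KO kidneys and at 8.46, 8.91 and 7.49 FPKM in WT kidneys, so the groups overlapped in whole-kidney RNA. FPKM are scaled to transcript length and library depth, so levels can be compared between genes. WT replicate 3 stood apart. Its log2 levels correlated across genes with those of WT replicates 1 and 2 at r = 0.977 and 0.976, against 0.992 between WT replicates 1 and 2. With Tsc1-KO replicates 4, 5 and 6 it correlated at r = 0.981, 0.980 and 0.974. Its correlation was thus lower within its own group than with 2 of the Tsc1-KO libraries. It was kept among the 6 libraries fitted, and values without it are given beside the results they touch. Proximal tubule markers marked the tissue as kidney, with a summed level of 31611 to 37249 FPKM in Tsc1-KO kidneys and 32786 to 44458 FPKM in WT kidneys. Most of this sum came from the marker Kap, at 26818 to 31802 FPKM in Tsc1-KO kidneys and 26957 to 38369 FPKM in WT kidneys. Over all 13230 genes tested, limma on log2(FPKM + 0.1) at an adjusted p under 0.05 called 248 genes higher and 31 genes lower in Tsc1-KO kidneys. The sum of 279 calls became 104, 24 and 0 without Tsc1-KO replicates 4, 5 and 6, and 32, 184 and 1109 without WT replicates 1, 2 and 3. The p-values measure only the spread between these libraries. For 3 libraries against 3, the smallest p that exact permutation allows is 0.1.

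The members covered a wide range of levels. Fxyd2 lay between 1648 and 1911 FPKM over the 6 libraries and ranked 11 of the 15302 genes by mean level. Atp1b1 lay between 1128 and 1287 FPKM and ranked 24. Atp1b3 lay between 61.9 and 69.7 FPKM, Fxyd4 between 43.4 and 64.3 FPKM, Atp4a between 9.54 and 17.7 FPKM and Fxyd5 between 3.76 and 5.13 FPKM. Atp12a was the lowest, between 0.0451 and 2.10 FPKM. The ranges of Atp1b3 and Fxyd4 overlapped and those of the other neighbours in this order did not.

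Atp12a, the alpha subunit of the H+/K+-ATPase known from the colon, was the member with the largest difference. It was at 1.36, 2.08 and 2.10 FPKM in Tsc1-KO kidneys and at 0.0566, 0.0451 and 0.141 FPKM in WT kidneys. The groups did not overlap, and the lowest Tsc1-KO library was 9.68 times the highest WT library. The mean was 1.85 ± 0.423 FPKM in Tsc1-KO kidneys and 0.0807 ± 0.0521 FPKM in WT kidneys (SD, n = 3 each), a ratio of 22.9. WT replicate 3 was the highest of the WT libraries, and without it the ratio was 36.4.

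The WT level of Atp12a rested on few reads. The libraries held 115, 161 and 205 reads of this gene in Tsc1-KO kidneys and 5, 4 and 12 reads in WT kidneys. Summed and set against the read totals, 481 reads in Tsc1-KO against 21 reads in WT gave a ratio of 23.2, with a 95% exact interval of 15.0 to 37.8 that covers counting error only. The log2 difference was 3.44 (SE 0.291) on the log2(FPKM + 0.1) scale, which understates the change of a gene this low, and 4.57 (SE 0.451) on the whole reads with limma-voom. Atp12a passed the filter of 0.5 FPKM through its Tsc1-KO libraries alone. In GENCODE the antisense gene Gm10873 shares 557 exon bases with Atp12a. Whether the reads were counted by strand is not given in the sources used here, so reads of Gm10873 and Atp12a cannot be told apart.

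Atp4a encodes the alpha subunit of the acid pump of the stomach, and is also expressed in intercalated cells of the collecting duct. Its level was 14.6, 17.7 and 14.8 FPKM in Tsc1-KO kidneys and 9.54, 10.7 and 9.61 FPKM in WT kidneys. The groups did not overlap, and the nearest libraries differed by a factor of 1.36. The mean was 15.7 ± 1.72 FPKM in Tsc1-KO kidneys and 9.96 ± 0.664 FPKM in WT kidneys (SD, n = 3 each), a ratio of 1.58. The log2 difference was 0.65 (SE 0.097), and 0.62 without WT replicate 3. The reads behind these levels were 1130, 1253 and 1322 in Tsc1-KO kidneys and 772, 872 and 752 in WT kidneys.

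**Figure D1:**
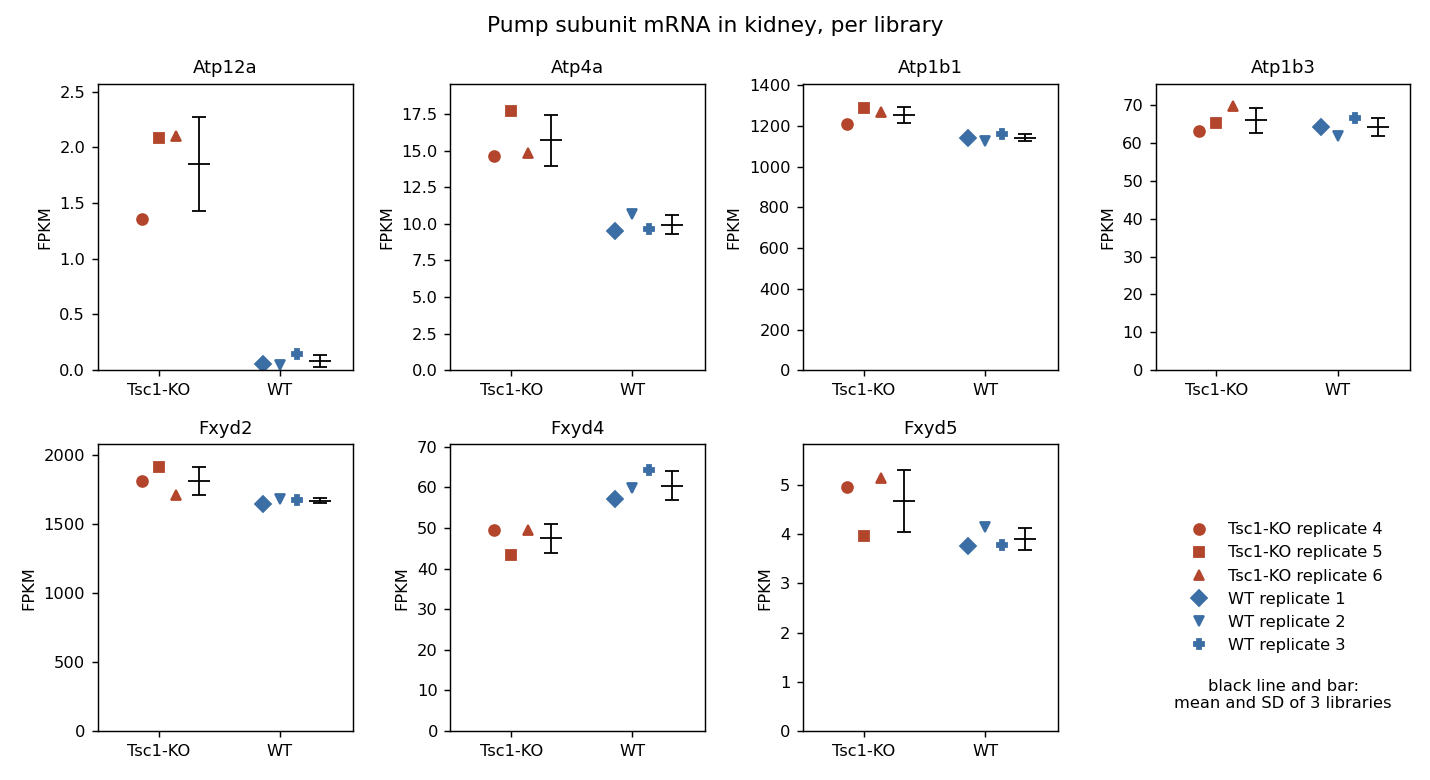
FPKM of the 7 members (vertical axes, linear and from 0) in each Tsc1-KO library (red) and each WT library (blue), with the mean and SD of 3 libraries in black. Atp12a, Atp4a, Atp1b1 and Fxyd2 stood higher in every Tsc1-KO library than in any WT library, as did 17.3% of all genes tested. Fxyd4 stood lower in every Tsc1-KO library, as did 8.07% of all genes tested, and Atp1b3 and Fxyd5 overlapped.

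Atp12a made up more of the H+/K+-ATPase alpha mRNA in Tsc1-KO kidneys. Its share of the summed FPKM of Atp12a and Atp4a was 8.53%, 10.5% and 12.4% in Tsc1-KO kidneys and 0.590%, 0.419% and 1.44% in WT kidneys. The sum itself was 16.0, 19.8 and 16.9 FPKM in Tsc1-KO kidneys and 9.60, 10.8 and 9.75 FPKM in WT kidneys. Atp4a thus gave most of this mRNA in every library. Atp4b, which encodes the beta subunit of the gastric pump, was not analysed here.

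Among beta subunits, Atp1b1 is the main beta subunit of the renal Na+/K+-ATPase and can also pair with the colonic H+/K+-ATPase alpha subunit. It was at 1211, 1287 and 1269 FPKM in Tsc1-KO kidneys and 1140, 1128 and 1161 FPKM in WT kidneys. The groups did not overlap, although the difference was small. Its mean was 1256 ± 39.5 FPKM in Tsc1-KO kidneys and 1143 ± 16.6 FPKM in WT kidneys (SD, n = 3 each), and the log2 difference was 0.14 (SE 0.065). Nme7, a protein-coding gene on the opposite strand, shares 575 exon bases with Atp1b1 and averaged 5.73 FPKM in Tsc1-KO kidneys and 6.71 FPKM in WT kidneys.

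Atp1b3, another beta subunit of the Na+/K+-ATPase, was at 63.2, 65.3 and 69.7 FPKM in Tsc1-KO kidneys and 64.3, 61.9 and 66.7 FPKM in WT kidneys. The groups overlapped, and the log2 difference was 0.04 (SE 0.059). It stayed small in each leave-one-out fit. Leaving out Tsc1-KO replicate 4 gave 0.07 and leaving out Tsc1-KO replicate 6 gave 0.0001, while it was 0.01 when WT replicate 2 was left out and 0.07 when WT replicate 3 was. Atp1b1 gave 94.6% ± 0.211 of the beta FPKM in Tsc1-KO kidneys and 94.3% ± 0.0274 in WT kidneys (SD, n = 3 each). Atp1b2, no member, is a beta subunit known from glia. It was at 5.59, 4.99 and 5.63 FPKM in Tsc1-KO kidneys and 3.83, 6.17 and 3.27 FPKM in WT kidneys (log2 difference 0.33, limma adjusted p = 0.467). That difference was 0.60 without WT replicate 2 and 0.15 without WT replicate 3.

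Fxyd2 encodes the gamma subunit of the Na+/K+-ATPase and was the most abundant member. It was at 1810, 1911 and 1709 FPKM in Tsc1-KO kidneys and 1648, 1685 and 1674 FPKM in WT kidneys. The groups did not overlap, but the lowest Tsc1-KO library was only 1.01 times the highest WT library. The log2 difference was 0.12 (SE 0.076), and 0.08 without Tsc1-KO replicate 5. Of the summed FPKM of the 5 FXYD genes with values, Fxyd2 gave 96.8% ± 0.382 in Tsc1-KO kidneys and 95.9% ± 0.251 in WT kidneys (SD, n = 3 each).

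Fxyd4 was the member that was lower in Tsc1-KO kidneys. It encodes CHIF, the corticosteroid hormone-induced factor, which in the rat is a regulator of the Na+/K+-ATPase in the collecting duct and distal colon. Its level was 49.4, 43.4 and 49.4 FPKM in Tsc1-KO kidneys and 57.2, 59.8 and 64.3 FPKM in WT kidneys. Every Tsc1-KO library lay below every WT library. The mean was 47.4 ± 3.44 FPKM in Tsc1-KO kidneys and 60.4 ± 3.63 FPKM in WT kidneys (SD, n = 3 each), a ratio of 0.784, and the log2 difference was -0.35 (SE 0.075). Without WT replicate 3, its highest library, the log2 difference was -0.30.

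Fxyd4 was also set against the other FXYD genes and against water channels of principal cells. Its share of the FXYD FPKM was 2.64%, 2.21% and 2.79% in Tsc1-KO kidneys and 3.33%, 3.41% and 3.68% in WT kidneys. Divided by Aqp2, the water channel of principal cells, it was 0.196, 0.151 and 0.181 in Tsc1-KO kidneys and 0.301, 0.277 and 0.226 in WT kidneys. Aqp2 itself was at 252, 287 and 273 FPKM in Tsc1-KO kidneys and 190, 216 and 285 FPKM in WT kidneys. The groups did not overlap in this ratio, but they did relative to other water channels of principal cells. Divided by Aqp3, Fxyd4 was 0.661, 0.624 and 0.787 in Tsc1-KO kidneys and 0.731, 0.803 and 0.823 in WT kidneys. Divided by Aqp4, it was 3.58 to 4.97 in Tsc1-KO kidneys and 2.86 to 6.71 in WT kidneys.

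Fxyd5, known as dysadherin, was at 4.95, 3.96 and 5.13 FPKM in Tsc1-KO kidneys and 3.76, 4.15 and 3.78 FPKM in WT kidneys. The groups overlapped through Tsc1-KO replicate 5 and WT replicate 2, and the log2 difference was 0.25 (SE 0.121). The reads numbered 175, 128 and 209 in Tsc1-KO kidneys and 139, 154 and 135 in WT kidneys, the fewest of any member apart from Atp12a. Of the FXYD genes that are no members, Fxyd1, phospholemman, was at 4.63, 4.27 and 4.70 FPKM in Tsc1-KO kidneys and 3.45, 4.07 and 4.47 FPKM in WT kidneys (limma adjusted p = 0.441). Fxyd6 averaged 2.87 ± 0.0743 FPKM in Tsc1-KO kidneys and 2.42 ± 0.892 FPKM in WT kidneys (SD, n = 3 each; limma adjusted p = 0.558). Its log2 difference of 0.29 was 0.07 without WT replicate 1 and 0.56 without WT replicate 3 (limma adjusted p = 0.921 and 0.0607). For Fxyd1 it was 0.18, and 0.09 without WT replicate 1.

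**Figure D2:**
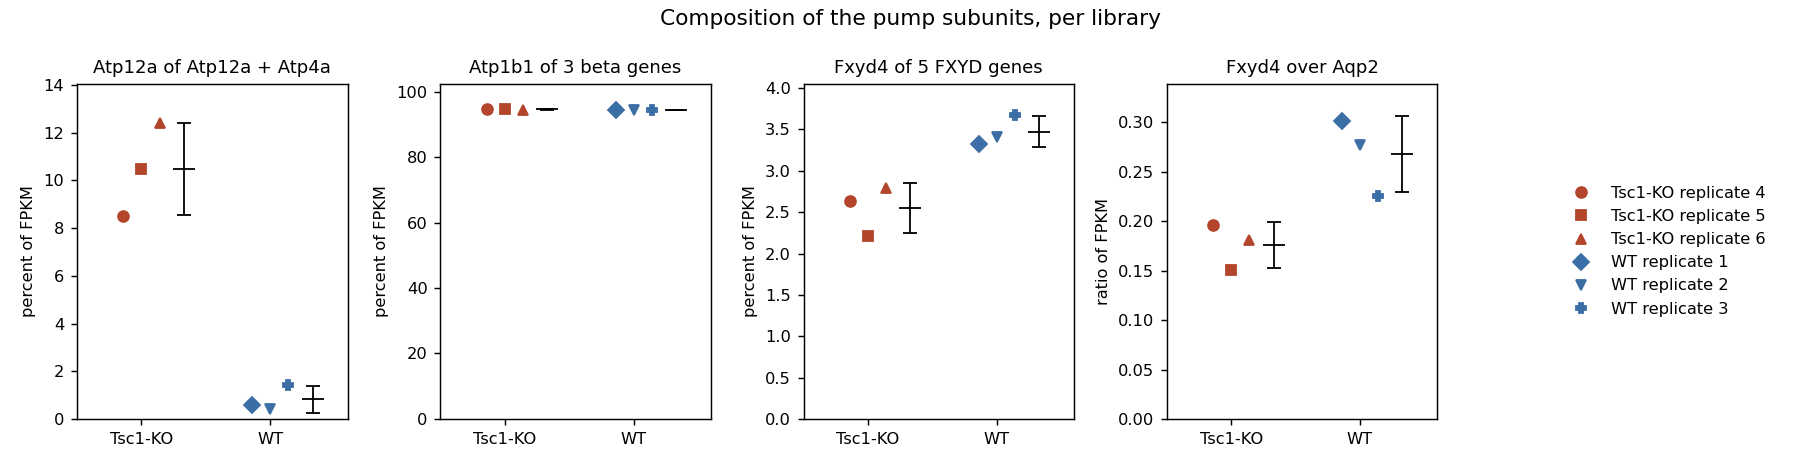
Shares of pump subunit FPKM in percent, and the ratio of Fxyd4 to Aqp2 (vertical axes from 0), in each Tsc1-KO library (red) and WT library (blue), with the mean and SD of 3 libraries in black. Atp12a took 8.53% to 12.4% of H+/K+-ATPase alpha FPKM in Tsc1-KO kidneys and 0.419% to 1.44% in WT kidneys, and the Atp1b1 share of beta FPKM was near 94% in both.

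Over the 7 members, the median log2 difference was 0.14, against 0.04 over all 13230 genes tested. Atp12a and Atp4a were called higher, 2 of 7, where 1.87% of all genes tested were called higher. Lower calls were 0 of 7, where 0.234% of all genes were called lower. Of the 7, 3 reached an unadjusted p under 0.05, and 2 were called by limma-voom. Across all genes, 19.2% had an unadjusted p under 0.05 and 2.09% were called by limma-voom. In 4 members every Tsc1-KO library lay above every WT library, as in 17.3% of all genes. In 1 member every Tsc1-KO library lay below, as in 8.07% of all genes. These counts use the comparison by which the members were chosen, so nothing is read from them. The calls also hung on single libraries: Atp4a was not called without Tsc1-KO replicate 4, 5 or 6 or WT replicate 1 (limma adjusted p between 0.0680 and 0.118), and Atp12a was not called without Tsc1-KO replicate 5 or 6 (limma adjusted p = 0.0508 and 0.0540). Of the other tested family genes, Atp1b2, Fxyd1 and Fxyd6, limma and limma-voom called 0, and 0 had an unadjusted p under 0.05.

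**Figure D3:**
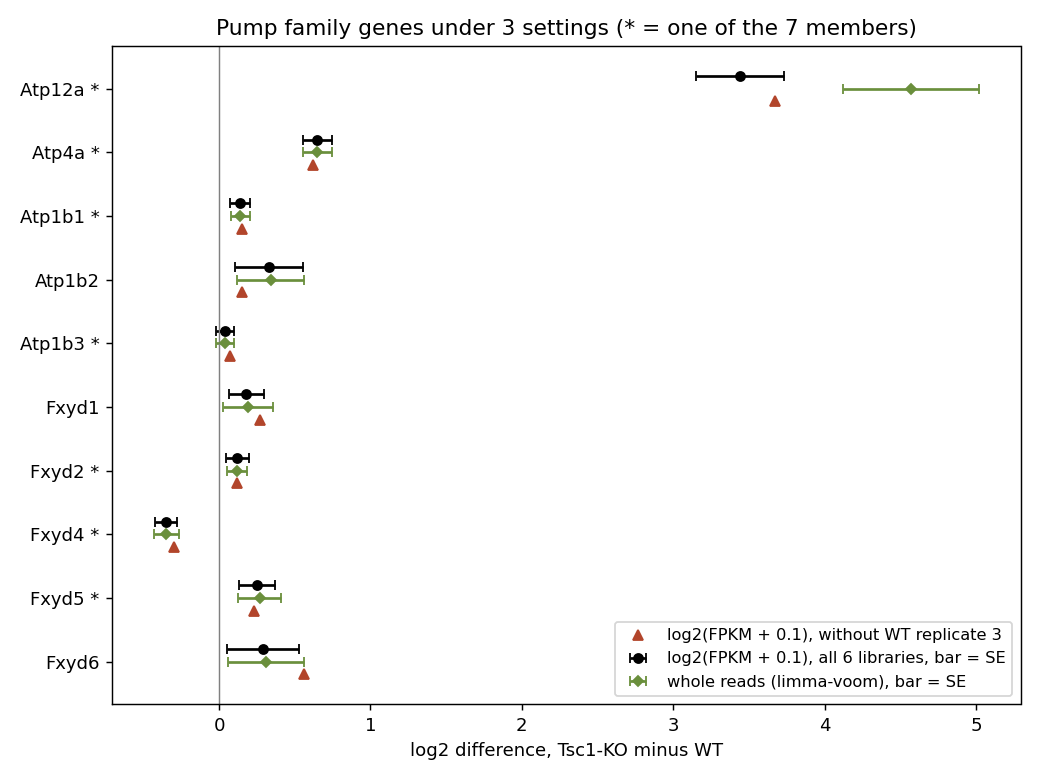
Log2 difference, Tsc1-KO minus WT, of 10 tested family genes (asterisks mark the 7 members) on log2(FPKM + 0.1) with all 6 libraries (circles, bars are SE), on whole reads by limma-voom (diamonds, bars are SE) and without WT replicate 3 (triangles). Atp12a moved with the scale, at 3.44 and 4.57, and Fxyd4 was the only gene below 0 under all 3 settings.

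Markers of 13 cell types or tissues were read beside the members, and limma called genes in 4 of these lists. The lists were chosen with earlier results of these data known, so their counts are a description and support nothing. Of all genes tested, 1.87% were called higher, 0.234% were called lower, and 19.2% had an unadjusted p under 0.05. Of 13 intercalated cell markers 9 were called higher and 0 lower, with a summed level of 383 to 486 FPKM in Tsc1-KO kidneys and 208 to 254 FPKM in WT kidneys. Foxi1, the transcription factor of these cells, was at 35.7 to 45.8 FPKM in Tsc1-KO kidneys and 9.71 to 20.6 FPKM in WT kidneys. The 4 intercalated cell markers that were not called, Slc26a4, Slc4a9, Hmx2 and Insrr, had ratios of Tsc1-KO to WT mean FPKM of 0.868, 0.981, 0.590 and 0.963. Without WT replicate 3 these ratios were 0.858, 1.03, 0.803 and 1.01. In 2 of them, Slc26a4 and Hmx2, every Tsc1-KO value was under every WT value, as in 8.07% of all genes tested. Of 11 principal cell markers 3 were called higher, with sums of 562 to 610 FPKM in Tsc1-KO kidneys and 447 to 581 FPKM in WT kidneys. Without WT replicate 3 the calls among them were 6, where calls over all 13230 genes rose from 279 to 1109. Fibroblast and matrix markers had 3 of 8 called higher, with sums of 71.9 to 116 FPKM in Tsc1-KO kidneys and 45.9 to 58.0 FPKM in WT kidneys. Of 9 thick limb and distal tubule markers 1 was called higher. Limma and limma-voom called 0 of 11 proximal tubule markers, 0 of 5 podocyte markers, 0 of 7 endothelial markers, 0 of 8 macrophage markers and 0 of 5 urothelial markers, with an unadjusted p under 0.05 in 3 proximal tubule markers and in 0 of the other lists. Muscle, nerve and gastric markers had 2, 1 and 1 genes tested and 0 called by either tool, with 1 muscle gene at an unadjusted p under 0.05, and 0 lymphocyte markers passed the filter. No marker with values was listed at 0 in all libraries. In bulk RNA, more cells of a type cannot be told apart from more RNA per cell, and the part of these markers in the pump values was not tested.

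Regulators of the pumps, such as kinases, receptors and anchoring proteins, were given by a list of 25 genes, of which 22 were tested. Limma called 0 of them higher or lower, limma-voom called 0, and 6 had an unadjusted p under 0.05, where 19.2% of all genes did. Their median log2 difference was 0.10, and 0.03 without WT replicate 3, where that over all genes was also 0.03. Sik1, a salt-inducible kinase, was at 18.8, 19.3 and 19.6 FPKM in Tsc1-KO kidneys and 13.5, 14.3 and 16.2 FPKM in WT kidneys (log2 difference 0.39, limma adjusted p = 0.0636). Wnk1, a kinase of sodium and potassium transport, was at 51.5, 48.1 and 57.4 FPKM in Tsc1-KO kidneys and 38.5, 40.6 and 42.1 FPKM in WT kidneys (log2 difference 0.37, limma adjusted p = 0.0707). In both genes every Tsc1-KO library lay above every WT library, as in 17.3% of all genes tested. Without WT replicate 3, 6 regulators were called, and calls over all 13230 genes rose from 279 to 1109.

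Channels and carriers that work with the pumps were given by a list of 28 genes, of which 24 were tested. Limma called 3 higher and 0 lower, against 1.87% and 0.234% of all genes tested, and limma-voom also called 3. The median log2 difference of the list was 0.12. Scnn1b and Scnn1g are subunits of the epithelial sodium channel, through which principal cells take up the sodium that the Na+/K+-ATPase then extrudes. Both genes are also on the principal cell marker list, among those called there. Scnn1b was at 23.8, 27.3 and 26.8 FPKM in Tsc1-KO kidneys and 16.2, 16.6 and 16.4 FPKM in WT kidneys (log2 difference 0.66, SE 0.069, limma adjusted p = 0.0102). Scnn1g was at 21.1, 22.6 and 24.4 FPKM in Tsc1-KO kidneys and 15.1, 14.2 and 16.4 FPKM in WT kidneys (log2 difference 0.57, SE 0.081, limma adjusted p = 0.0242). Kcnq1, a potassium channel, was at 12.6, 15.6 and 16.6 FPKM in Tsc1-KO kidneys and 8.17, 9.38 and 9.23 FPKM in WT kidneys (log2 difference 0.73, SE 0.116, limma adjusted p = 0.0325). All 3 rose, with no overlap between the groups. Of the 24 tested partners, every Tsc1-KO library lay above every WT library in 8 and below in 2. Over all genes tested the shares were 17.3% and 8.07%. An unadjusted p under 0.05 was found in 9 partners, against 19.2% of all genes. With 1 library left out, limma called 0 partners when it was Tsc1-KO replicate 5 or 6 or WT replicate 1. It called 1 when WT replicate 2 was left out and 8 when WT replicate 3 was. Over all 13230 genes those fits called 184 and 1109, against 279 with all libraries.

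The V-ATPase is the other proton pump of intercalated cells, and 23 of its 25 listed genes were tested. It had 4 called higher and 0 lower, against 1.87% and 0.234% of all genes tested. Its median log2 difference was 0.21, against 0.14 over the members and 0.22 over the 10 tested family genes, and limma-voom also called 4. An unadjusted p under 0.05 was found in 13, where 19.2% of all genes had it. Every Tsc1-KO library lay above every WT library in 16 and below in 2, as in 17.3% and 8.07% of all genes tested. Atp6v0d2 was at 37.9, 52.4 and 46.4 FPKM in Tsc1-KO kidneys and 14.4, 15.7 and 17.6 FPKM in WT kidneys (means 45.6 ± 7.25 and 15.9 ± 1.63, SD, n = 3 each, limma adjusted p = 0.00696). Atp6v1g3 was at 61.0, 77.6 and 65.6 FPKM in Tsc1-KO kidneys and 25.2, 30.1 and 33.5 FPKM in WT kidneys (log2 difference 1.20, limma adjusted p = 0.0107). Both are also on the intercalated cell marker list. Atp6v1c2 and Atp6v1b1 rose less, by 0.68 and 0.37 on the log2 scale (limma adjusted p = 0.0325 and 0.0454). Leaving out Tsc1-KO replicate 6 gave 0 V-ATPase calls and leaving out Tsc1-KO replicate 5 gave 1. Leaving out WT replicate 1 or 2 gave 2, and leaving out WT replicate 3 gave 7. Calls over all 13230 genes were 279 with all libraries and 1109 without WT replicate 3.

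**Figure D4:**
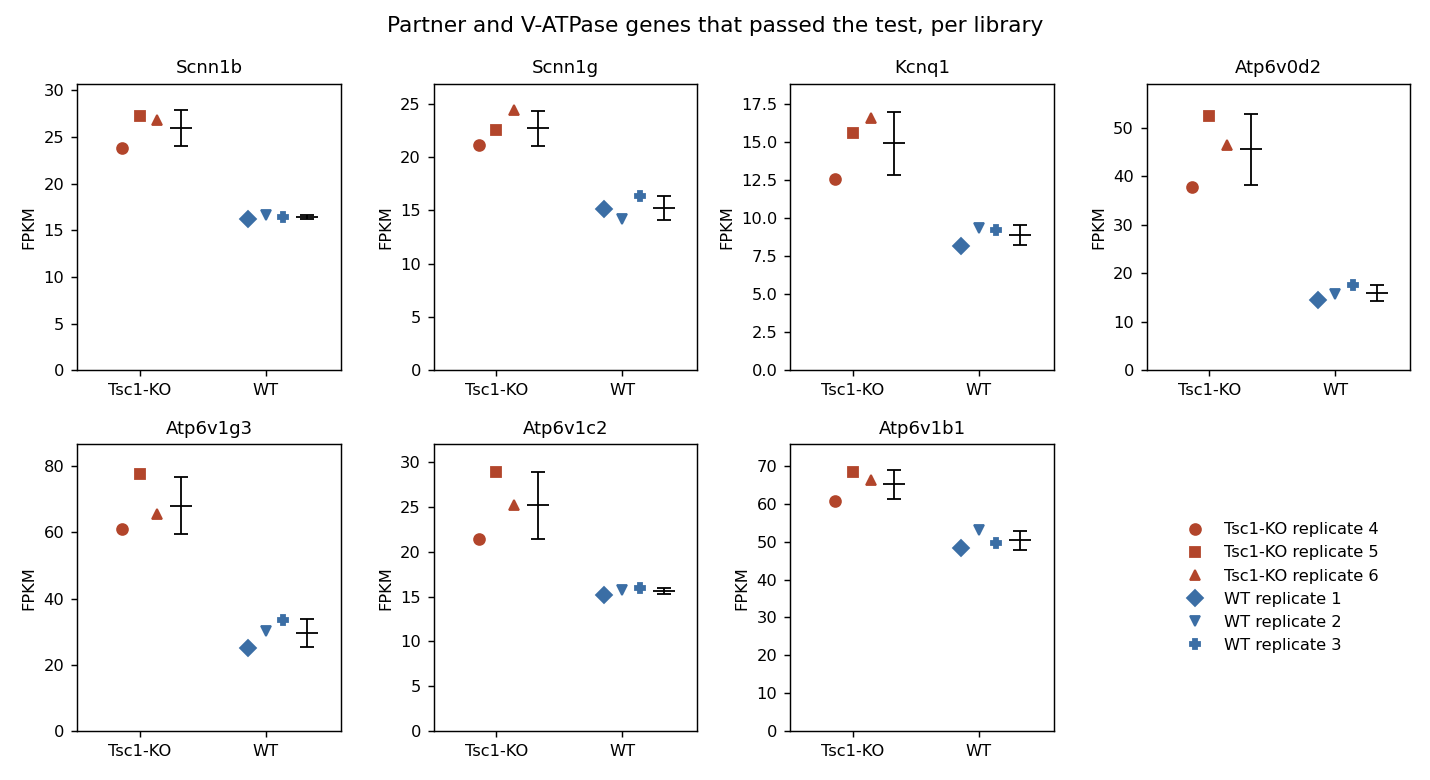
FPKM of 3 sodium and potassium partner genes and 4 V-ATPase genes that passed the test (vertical axes from 0), in each Tsc1-KO library (red) and WT library (blue), with the mean and SD of 3 libraries in black. The 7 genes are shown because limma called them higher. In all of them the Tsc1-KO libraries lay above the WT libraries, as in 17.3% of all genes tested.

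Other P-type ATPases, among them pumps of calcium, copper or lipids, were tested for comparison. Of 31 listed genes 21 were tested, and limma called 0 and limma-voom 1. The unadjusted p was under 0.05 in 4, where it was so in 19.2% of all genes tested. The smallest p belonged to Atp2b4, a plasma membrane calcium pump, at 3.92, 4.16 and 4.76 FPKM in Tsc1-KO kidneys and 2.58, 2.86 and 2.97 FPKM in WT kidneys (log2 difference 0.59, limma adjusted p = 0.0521), and it was the gene that limma-voom called. Atp8b2, a lipid flippase, was at 2.66, 2.66 and 2.89 FPKM in Tsc1-KO kidneys and 1.84, 2.14 and 1.41 FPKM in WT kidneys (log2 difference 0.60, limma adjusted p = 0.117). The median log2 difference of this list was 0.10.

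Over the 6 libraries the members varied partly together, which is given as a description because the group difference and the library are shared by all points. Log2 levels of Atp12a correlated with those of Atp1b1 at r = 0.97, of Atp4a at r = 0.94 and of Fxyd4 at r = -0.89 (n = 6). With Slc4a1, the anion exchanger of acid-secreting intercalated cells, r was 0.98 for Atp12a, 0.96 for Atp4a and -0.92 for Fxyd4. Signs were turned with Slc26a4, the anion exchanger of base-secreting intercalated cells, at -0.89 for Atp12a, -0.80 for Atp4a and 0.79 for Fxyd4. With the collagen gene Col1a1, of another cell type, r was 0.92 for Atp12a, 0.81 for Atp4a and -0.71 for Fxyd4. The other members correlated with Slc4a1 at r = 0.97 for Atp1b1, 0.74 for Fxyd2, 0.65 for Fxyd5 and 0.46 for Atp1b3. Among 12118 genes, those most like Atp12a were Pga5, Ckmt1 and S100a14 (r = 0.997, 0.996 and 0.996), and those most like Atp4a were Ccdc28b, Slc25a3 and Rgl3 (r = 0.997, 0.997 and 0.996). Those most like Atp1b1 were Daam1, Cyfip2 and Ociad2, like Atp1b3 Mettl15, Rccd1 and Setdb1, and like Fxyd2 Ttc4, Fam102a and Phf6. Fxyd4 was most like Rhoc, Lrrc1 and Mtmr11, and Fxyd5 most like Icosl, Loxl1 and Esam. Of the 12118 genes, 278 were above r = 0.95 for Atp12a and 16 for Atp1b3, so a high r over 6 libraries singles out no gene.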

How the data were processed

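Kidney poly A RNA of 6 libraries was sequenced on an Illumina system. Per the labels, the submitters' processing notes name HISAT2 2.0.4 and HTSeq 0.9.1, and the genome build is not given in the sources used here. FPKM of 15302 genes, 1 column per library, are as the authors deposited them. The authors' deposited base means are a signal (counts divided by size factors, averaged over a group or all libraries) and were used only to recover whole reads, which came out whole within 0.02 for 90069 of 90069 values of up to 10000 reads. The authors' columns of fold change, log2 fold change, p-value and adjusted p-value, and 2 further lists of higher and lower genes, were not used.

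The 13230 genes that averaged 0.5 FPKM or more were fitted with limma 3.58.1 (R 4.3.3) on the log2(FPKM + 0.1) scale. Genotype was the only term, the variance was moderated with a trend, tests were 2-sided and p-values were adjusted over all 13230 genes by the Benjamini-Hochberg method. The fit was tested on simulated data. Alternatives were a pseudocount of 1, no filter, a filter of 1 FPKM, no variance trend, median-of-ratios scaling, limma-voom on whole reads, and leaving out each library. A leave-one-out fit kept the same genes and left a group with 2 libraries.

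Named are the family genes (some genes of the family are not reported here), the genes of each list that passed (at most 6, or the 2 with the smallest p where 0 passed), and for each member the 3 genes of at least 1 FPKM with the highest Pearson r. The members and lists were chosen with earlier results of these data known. Sequences, exon positions and overlapping genes are from GENCODE vM21 (GRCm38), read with Biopython 1.88 and Python 3.11.15, and figures were drawn with matplotlib 3.10.9. Intervals cover counting error only.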

Additional observations from a re-analysis of the deposited data

How the results depend on the processing

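The members kept their direction under 12 alternatives (11 for Atp12a, which had too low a mean for the filter of 1 FPKM), except Atp1b3, whose log2 difference was -0.0040 with median-of-ratios scaling. The log2 difference of Atp12a was 1.39 with a pseudocount of 1 and 4.57 with limma-voom, and that of Atp1b1 was 0.0924 with median-of-ratios scaling, which moved the median of all genes to -0.003. Called family genes numbered 1 with the filter of 1 FPKM, V-ATPase genes 2 with no variance trend, and other P-type ATPases 1 with limma-voom. Leaving out 1 library gave 0 to 1109 genes called (limma called 0 without Tsc1-KO replicate 6, where 1777 had an unadjusted p under 0.05, and 1109 without WT replicate 3, against 279 with all libraries), 0 to 2 family genes, 0 to 6 regulators, 0 to 8 partners, 0 to 2 other P-type ATPases and 0 to 7 V-ATPase genes. The cause was not tested. No paired analysis was possible because the groups share no replicate numbers. Depth limits Atp12a in WT libraries, at 4 to 12 reads.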

Other observations

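Sgk1, a kinase induced by aldosterone that raises sodium transport, was chosen after its values were seen. It was at 35.2, 35.1 and 42.7 FPKM in Tsc1-KO kidneys and 15.5, 21.4 and 37.5 FPKM in WT kidneys. The groups overlapped through WT replicate 3, and the log2 difference was 0.69 (limma adjusted p = 0.263). Without WT replicate 3 the limma adjusted p was 0.0176, and calls over all genes rose from 279 to 1109. Leaving out that library also took away the overlap, so nothing is read from this p-value.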
